A study of Homo sapiens with 9 samples.

Results

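The 9 genes described here, PF4, PPBP, GP1BA, GP1BB, GP9, GP6, VWF, SELP and TUBB1, are classical markers of megakaryocytes and platelets. They were taken by gene symbol from a named list of 9, and each of them matched 1 gene among the 26830 in the deposited tables. The RNA came from NB4, a human leukaemia line of promyelocytic origin whose cell type label reads acute monocytic leukaemia. Cultures were exposed for 48 h to DMSO, the solvent control, or to 1 of 2 compounds, FB23 or FB23-2, in a study of the inhibition of the RNA demethylase FTO. Each of the 3 groups had 3 libraries of poly(A)-selected RNA, and the labels give no dose and do not say whether replicates were separate cultures. The p-values below therefore measure the spread between these libraries, which may be technical. Library totals ran from 12360291 to 38410750 expected counts, and both extremes were FB23 libraries.

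Megakaryocytes are large marrow cells that shed platelets into the blood. They share a progenitor and several transcription factors, GATA1 among them, with red cell precursors. As they mature they load alpha granules with chemokines, adhesive proteins and growth factors, place adhesion receptors on their surface membrane, and build a marginal band of microtubules. PF4 and PPBP encode the main granule chemokines, VWF the large adhesive protein that ties platelets to damaged vessel walls, and SELP the granule membrane protein P-selectin. GP1BA, GP1BB and GP9 encode subunits of the receptor that binds VWF, GP6 encodes the collagen receptor, and TUBB1 encodes the beta-tubulin of the marginal band.

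The members split into 4 genes with no reads, 2 that were called higher after FB23-2 (GP6 and GP1BA), 2 that were called lower (TUBB1 and GP1BB), and VWF, which had more counts after FB23-2 but stayed close to the detection limit. GP6 rose 3.12-fold and GP1BA 2.26-fold against DMSO, and TUBB1 fell by 2.47 on the log2 scale. No member passed the test after FB23. Levels are given in TPM, a measure scaled to library size and transcript length. Changes are log2 fold changes of counts scaled to library size (CPM) from edgeR's quasi-likelihood test, with Benjamini-Hochberg adjustment over all 13365 genes tested and a threshold of 0.05.

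The cells' own identity bears on every value. Erythroid genes, globins above all, were read at high levels in DMSO. There 15 erythroid markers, led by the fetal globin HBG2 at a mean of 8100 TPM, summed to between 27400 and 29100 TPM. The same markers summed to 3970 to 4540 TPM in FB23-2. Not all of them were high: AHSP had 0 counts, and HBB (2.95 TPM), SLC4A1 (0.923 TPM) and EPB42 (0.4 TPM) were low in DMSO. The neutrophil granule genes MPO and ELANE, which mark promyelocytes, had 0 counts and 1 count over all 9 libraries. Among the other promyelocyte and monocyte markers, CTSG was at 0. PRTN3 had 16, 6 and 9 counts and AZU1 10, 11 and 22 in DMSO, FB23 and FB23-2. Others were read: CD33 at 44 TPM, ITGAM at 4.45 TPM and LYZ at 4.35 TPM in DMSO. The globin and granule gene levels thus go against the NB4 label, while CD33 does not. The cells are named here only as labelled. In RNA from whole cultures, fewer cells of a type and less RNA per cell cannot be told apart.

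The granule chemokines PF4 and PPBP, the P-selectin gene SELP and the receptor subunit gene GP9 had 0 counts in every one of the 9 libraries. Together the libraries held 192662586 counts, so a count of 0 allows up to 0.0156 CPM (3 counts), as counting error alone. Per group the limit was 0.0571 CPM in DMSO, 0.0365 CPM in FB23 and 0.0517 CPM in FB23-2. PF4V1, a close copy of PF4, and FLI1, the ETS-family transcription factor of megakaryocytes, were also at 0 in all libraries. No difference between treatments was detectable for these genes at this depth.

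PF4 (chromosome 4, 73980811 to 73982124) and PPBP (chromosome 4, 73986439 to 73988190) are neighbours in RefSeq's GRCh38.p14 annotation. GP9 lies on chromosome 3 at 129054845 to 129062406, and SELP on chromosome 1 at 169588849 to 169630124. Sequences ahead of transcription starts are shown for 2 members at 0 counts and for GP6, which was higher after FB23-2, because GATA and ETS factors are the textbook regulators of megakaryocyte promoters. Of the 9 members, 6 matched a RefSeq window of 250 bases before to 50 bases after 1 start, and the bases printed are those of the window that precede any GENCODE exon in it. The GP9 start lies inside the wider RefSeq span given above. Capitals mark the letters GATAA, the core of the GATA motif, and GGAAG, the core of the ETS motif, or their reverse complements TTATC and CTTCC. Capitals run together where matches overlap or touch. These letters were chosen after the windows had been read.
PPBP, chr4:73988198-73988440, minus strand: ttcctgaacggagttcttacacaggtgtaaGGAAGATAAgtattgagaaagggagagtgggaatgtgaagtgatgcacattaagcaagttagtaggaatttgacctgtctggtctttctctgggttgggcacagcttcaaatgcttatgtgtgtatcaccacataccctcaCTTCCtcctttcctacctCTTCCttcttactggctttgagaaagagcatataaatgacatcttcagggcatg
GP9, chr3:129060529-129060766, plus strand: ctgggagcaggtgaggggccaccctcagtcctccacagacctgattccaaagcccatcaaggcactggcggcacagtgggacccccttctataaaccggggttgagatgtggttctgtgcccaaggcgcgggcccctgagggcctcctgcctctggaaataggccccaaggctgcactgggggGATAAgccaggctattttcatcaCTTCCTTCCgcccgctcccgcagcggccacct
GP6, chr19:55038265-55038514, minus strand: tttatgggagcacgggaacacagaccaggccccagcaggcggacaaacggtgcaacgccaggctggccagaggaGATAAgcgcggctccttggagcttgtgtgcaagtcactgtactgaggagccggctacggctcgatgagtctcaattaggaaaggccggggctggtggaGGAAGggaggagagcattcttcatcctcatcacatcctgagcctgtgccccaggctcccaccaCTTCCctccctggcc

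The GATAA letters stand at -176 to -172 from the start in GP6, at -67 to -63 in GP9 and at -216 to -212 in PPBP. In PPBP they overlap a GGAAG by 1 base. GP9 and GP6 each carry 2 ETS cores. Over both strands of the full windows, 5 of 6 members held GATAA and 6 held GGAAG. Of 35116 RefSeq windows of the same 300 bases, 22.7% held GATAA, 71.9% held GGAAG and 15.2% held both. Since the letters were chosen after the members' windows had been read, the contrast with these shares is not a test. A match of letters describes the sequence only. PPBP and GP9, with both motifs, had 0 counts, while GP6, also with both, was read in every library.

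Among the 5 members with reads, levels in DMSO spanned from VWF at 0.0367 TPM to GP1BB at 402 TPM. GP6 at 2.55 ± 0.376 TPM and TUBB1 at 2.28 ± 0.0902 TPM (SD, n = 3) followed GP1BB and overlapped each other, and GP1BA stood below them at 1.14 ± 0.461 TPM. GP1BB lay above 97.7% of the tested genes in mean TPM, GP6 above 22.6%, TUBB1 above 21.6%, GP1BA above 15% and VWF above 0.838%. So 1 receptor subunit gene was read as an abundant transcript, while the partner subunit genes were low (GP1BA) or absent from the counts (GP9). After FB23-2 the order became GP1BB, GP6, GP1BA, TUBB1 and VWF, with no overlap between neighbours.

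**Figure D1:**
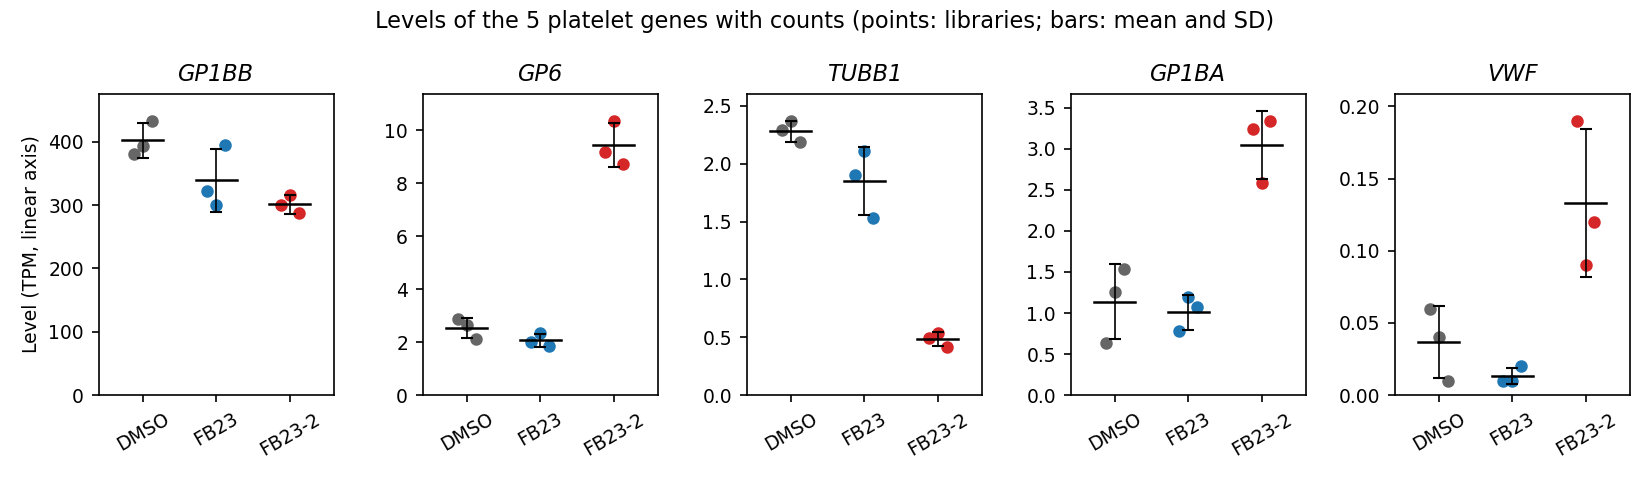
Level in TPM (linear axis, a scale of its own for each gene) of the 5 members with counts, by treatment group. Points are libraries and bars the mean and SD (n = 3). GP6, GP1BA and VWF are higher in all FB23-2 libraries than in any DMSO library, TUBB1 and GP1BB are lower, and FB23 overlaps DMSO for each gene but TUBB1.

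GP6, the collagen receptor gene (chromosome 19, 55013705 to 55038264), stood at 2.86, 2.65 and 2.13 TPM in DMSO replicates 1 to 3. In FB23 it was at 2.02, 2.33 and 1.87 TPM, and in FB23-2 at 9.2, 10.36 and 8.75 TPM. All 3 FB23-2 libraries lay far above the other 6, and the FB23 values overlapped those of DMSO. In edgeR's test GP6 rose after FB23-2 by 1.64 ± 0.14 (log2, SE), from 3.64 to 11.4 CPM (adjusted p = 8.01e-09). Against FB23 it was 3.87-fold higher after FB23-2 (log2 1.95 ± 0.14, edgeR adjusted p = 5.39e-10). FB23 itself did not pass against DMSO, with a log2 fold change of -0.31 (95% interval -0.66 to 0.04, edgeR adjusted p = 0.196).

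GP1BA, which encodes the VWF-binding chain of the receptor (chromosome 17, 4932277 to 4935023), had 0.63, 1.25 and 1.53 TPM in DMSO, from 17, 36 and 40 counts. It had 0.78, 1.19 and 1.07 TPM in FB23 and 3.24, 2.58 and 3.34 TPM in FB23-2. The FB23-2 libraries again stood above all others, and DMSO and FB23 overlapped widely. The rise after FB23-2 was 1.18 ± 0.25 (log2, SE) against DMSO (edgeR adjusted p = 0.000292) and 1.29 ± 0.23 against FB23 (edgeR adjusted p = 7.4e-05). For FB23 the log2 fold change was -0.11 (95% interval -0.68 to 0.46, edgeR adjusted p = 0.814), an interval that leaves room for a change of either sign.

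VWF (chromosome 12, 5948877 to 6124670) was at the edge of detection. Its counts were 6, 5 and 1 in DMSO, 1, 2 and 6 in FB23 and 27, 10 and 10 in FB23-2, over a transcript of 8838 bases. In TPM the FB23-2 libraries, at 0.19, 0.09 and 0.12, were above each DMSO library, at 0.06, 0.04 and 0.01, and above each FB23 library. VWF entered the test only through the FB23-2 libraries, since no DMSO or FB23 library reached the filter's level of 0.548 CPM, so a p-value would not be independent of the filter and none is given. Summed over groups, 47 counts after FB23-2 stood against 12 in DMSO, a depth-scaled ratio of 3.54 (95% counting interval 1.85 to 7.34), and against 9 in FB23, a ratio of 7.39 (3.58 to 17.1). For FB23 against DMSO the ratio was 0.48 (0.179 to 1.24). These intervals cover counting error only. Even after FB23-2, VWF averaged only 0.133 ± 0.0513 TPM (SD, n = 3).

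TUBB1, the platelet beta-tubulin gene (chromosome 20, 59016438 to 59026654), stood at 2.29, 2.37 and 2.19 TPM in DMSO, 1.9, 2.11 and 1.53 TPM in FB23 and 0.49, 0.54 and 0.42 TPM in FB23-2. It was the member with the largest fall: the FB23-2 libraries lay below all others, and the FB23 libraries lay just below the DMSO libraries. Against DMSO, TUBB1 fell after FB23-2 by 2.47 ± 0.20 on the log2 scale (edgeR adjusted p = 2.55e-09), from 5.39 to 0.96 CPM. Against FB23 it fell by 2.13 ± 0.20 (edgeR adjusted p = 1.95e-08). FB23 against DMSO gave -0.34 (95% interval -0.67 to -0.01), with an unadjusted p of 0.0468 and an edgeR adjusted p of 0.135, so the small separation of FB23 from DMSO did not pass. Groups that do not overlap were common in that comparison, at 37.9% of the tested genes.

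Among the beta-tubulin genes with test results given here, 3 moved opposite to TUBB1 after FB23-2. TUBB2A rose by 2.24 ± 0.08, TUBB2B by 4.49 ± 0.09 and TUBB3 by 2.23 ± 0.08 (log2, SE, each called by edgeR). TUBB2B went from 11.6 ± 0.529 TPM in DMSO to 310 ± 16.2 TPM, and TUBB3, the isotype known from neurons, from 73.1 ± 3.17 to 405 ± 29.3 TPM (SD, n = 3). After FB23, all 3 were called higher by smaller amounts, TUBB2A by 0.61 ± 0.09, TUBB2B by 0.58 ± 0.10 and TUBB3 by 0.27 ± 0.08 (edgeR adjusted p = 0.027 for TUBB3). TUBB2A and TUBB2B are near copies, so the division of reads between them is uncertain. Mean TPM was also higher in FB23-2 than in DMSO for TUBB4A (22.8 against 9.49), TUBB4B (1210 against 885) and TUBB6 (58.3 against 38.4). TUBB8 had 5, 4 and 1 counts in DMSO, FB23 and FB23-2 and was not tested, and TUBB was not analysed here.

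GP1BB, which encodes the receptor's beta chain (chromosome 22, 19723539 to 19724771), was the only abundant member. It stood at 380.8, 393.6 and 432.8 TPM in DMSO, 321.8, 299.3 and 394.5 TPM in FB23 and 300.1, 316.1 and 287.0 TPM in FB23-2. The FB23-2 libraries were below the DMSO libraries and overlapped FB23 in TPM. In edgeR's test GP1BB fell by 0.65 ± 0.10 after FB23-2 (log2, SE, adjusted p = 5.85e-06), from 177 to 112 CPM, and by 0.40 ± 0.09 against FB23 (adjusted p = 0.000958). The last call was lost on the TPM scale with limma, where the log2 difference was -0.16 (adjusted p = 0.114). FB23 against DMSO gave -0.26 (95% interval -0.45 to -0.06, edgeR adjusted p = 0.057). It passed without FB23 replicate 3, the highest FB23 library, at -0.43 (edgeR adjusted p = 3.89e-05), and without FB23-2 replicate 3 (adjusted p = 0.0496).

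The GP1BB value depends on how reads were divided at its locus. SEPT5, a septin gene, lies just upstream (chromosome 22, 19714503 to 19723319), and the tables also list SEPT5-GP1BB (19717220 to 19724774), a readthrough transcript of 4671 bases that starts within the SEPT5 span and covers GP1BB. The authors' estimates gave GP1BB 23.1, 23.9 and 25% of the locus's counts in DMSO, 24.3, 23.1 and 27.7% in FB23, and 45.0, 46.4 and 45.6% in FB23-2. The locus as a whole therefore fell much further than GP1BB alone. SEPT5 fell by 1.68 ± 0.06 and SEPT5-GP1BB by 2.33 ± 0.07 after FB23-2 (log2, SE, edgeR adjusted p = 4.44e-14 and 1.29e-15). They also fell after FB23, by 0.33 ± 0.06 and 0.36 ± 0.06 (edgeR adjusted p = 0.000623 and 0.000446).

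With GP1BB and SEPT5-GP1BB counted as 1 gene, a choice made after seeing the data, the fall after FB23-2 was 1.54 on the log2 scale (edgeR adjusted p = 5.89e-13) in place of 0.65. The fall after FB23 became 0.33 (edgeR adjusted p = 0.00196) and passed. With SEPT5 added as well, the falls were 1.58 and 0.33 (edgeR adjusted p = 1.24e-13 and 0.000927). The direction for FB23-2 was the same in every case, and the size of the GP1BB change was not settled by these tables.

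**Figure D2:**
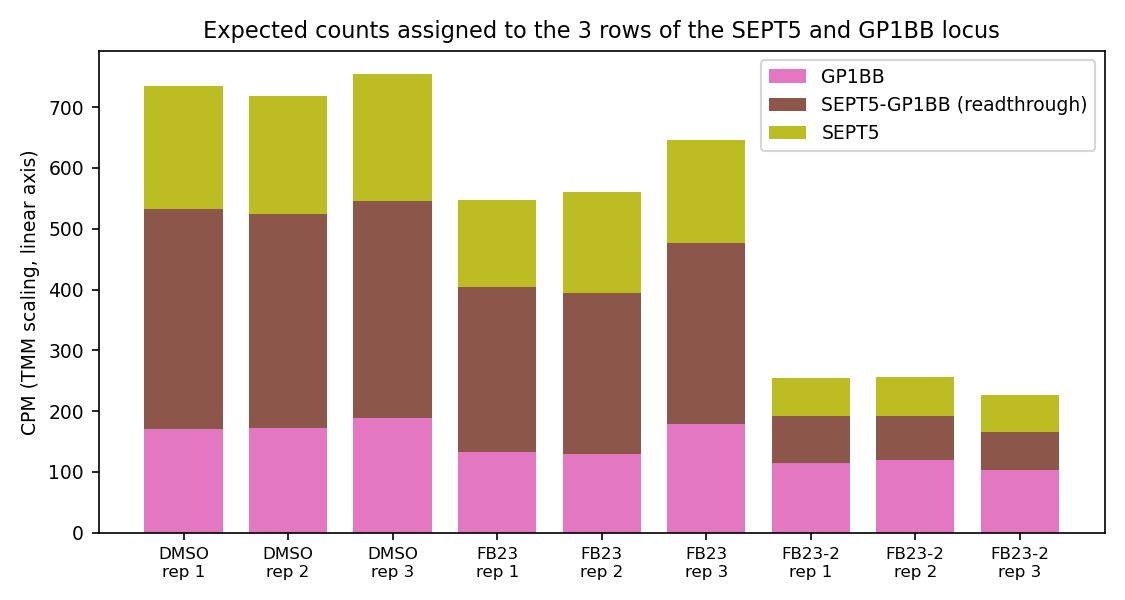
CPM assigned to GP1BB, SEPT5-GP1BB and SEPT5 in each library, stacked from 0 on a linear axis. The summed height falls from 719 to 754 CPM in DMSO to 226 to 257 CPM in FB23-2, while the GP1BB segment narrows less.

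In the comparison of FB23-2 with DMSO, the 4 members that reached the filter's level in every library were all called, 2 higher and 2 lower. Calls were the rule there: 82.6% of all tested genes were called, 41.3% higher and 41.3% lower, so nothing is read from the number of members called. All 4 had groups that did not overlap in CPM, as did 84.2% of all tested genes. The comparison of FB23-2 with FB23 called the same 4 members in the same directions, against a background of 81.5% called, 40.4% higher and 41.1% lower. Their CPM did not overlap between FB23-2 and FB23 for any of the 4, as for 81.2% of all tested genes. In FB23 against DMSO, 0 members were called by edgeR, DESeq2 or limma-voom, where edgeR called 23.5% of all genes, 12.3% higher and 11.2% lower. At an unadjusted p under 0.05, edgeR gave 2 members (GP1BB and TUBB1), limma-voom 2 and DESeq2 0. The comparisons with DMSO share its 3 libraries, and each compound's values stand side by side above. The matched time, 48 h, is the only condition of exposure that the labels give, so the difference between the compounds is a difference at doses not given here.

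**Figure D3:**
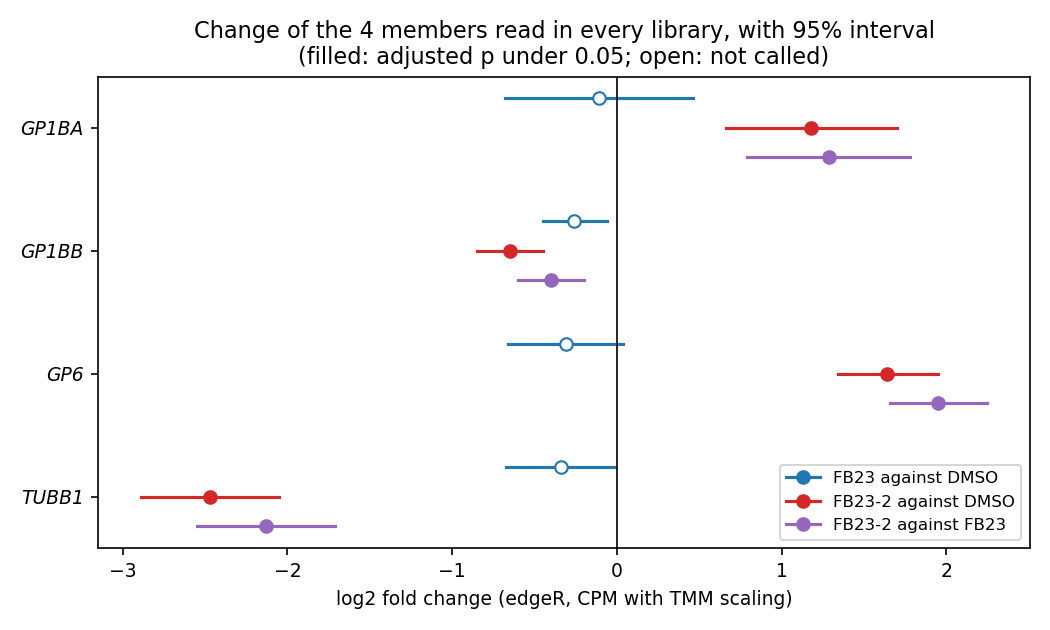
Log2 fold change (edgeR, CPM) of the 4 members that reached the filter's level in every library, in the 3 comparisons, with 95% intervals, filled where the adjusted p is under 0.05. GP6 and GP1BA lie to the right of 0 and TUBB1 and GP1BB to the left in both FB23-2 comparisons, while all FB23 points against DMSO are open.

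Among the transcription factors of the lineage, GATA1, NFE2, GFI1B and MECOM fell after FB23-2. Of 17 listed factors 14 were tested, and 8 were called lower and 4 higher, 85.7% in all where 82.6% of all genes were called, with a median log2 fold change of -0.34 against 0.01 for all genes. GATA1, the factor shared with red cells, fell by 1.13 ± 0.05, from 282 ± 3.85 to 153 ± 4.14 TPM. NFE2, a factor needed for platelet release, fell by 1.65 ± 0.05, GFI1B by 1.26 ± 0.07 and MECOM by 2.08 ± 0.09. RUNX1 rose by 0.38 ± 0.06, ZFPM1, the GATA1 partner, by 0.77 ± 0.10, and MKL1 by 0.84 ± 0.07 (log2, SE, each called by edgeR). After FB23, 4 factors were called lower and 0 higher, 28.6% against 23.5% of all genes. GFI1B fell by 0.28 ± 0.06 (edgeR adjusted p = 0.00404), while GATA1 at -0.05 and NFE2 at -0.03 did not pass (edgeR adjusted p = 0.492 and 0.724). RUNX1 was called lower after FB23, by 0.18 (edgeR adjusted p = 0.027), a call lost under 8 settings, among them the replicate number as a block (edgeR adjusted p = 0.0521) and leaving out DMSO replicate 1 (0.126), DMSO replicate 3 (0.0599) or FB23 replicate 2 (0.128).

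Among other receptor and integrin genes, ITGA2B and PEAR1 rose after FB23-2 and P2RY1 fell. Of 27 listed genes 15 were tested. Leaving out ITGB3 and ITGA6, which entered the test only through the FB23-2 libraries, and CD36, which entered it only through the others, 8 of 12 were called higher and 3 lower, with a median log2 fold change of 0.89. Among all genes that passed the filter on both sides in this way, 39.6% were called higher and 83.1% in either direction, with a median of -0.04. With all 15 genes the counts were 10 and 4, and the median was 1.04, also with CD36 set at its bound. ITGA2B and ITGB3 encode the fibrinogen receptor of platelets. ITGA2B rose by 1.21 ± 0.19, from 0.797 ± 0.0907 to 2.22 ± 0.188 TPM (SD, n = 3). PEAR1 rose by 1.04 ± 0.13, and the ADP receptor gene P2RY1 fell by 1.12 ± 0.12. ITGB3 had 17, 34 and 298 counts in DMSO, FB23 and FB23-2, and ITGA6, a laminin receptor chain, had 7, 16 and 73. The scavenger receptor gene CD36 had 37, 36 and 0 counts, at least 13.6-fold lower after FB23-2 than in DMSO when 3 counts over the group are taken as the floor. After FB23, 2 of the 12 were called lower and 0 higher, 16.7% where 25% of all such genes were called, and ITGA2B gave -0.11 (edgeR adjusted p = 0.755). Some receptor genes were barely read: GP5, of the same complex as GP1BA, had 9, 2 and 15 counts in DMSO, FB23 and FB23-2, and CLEC1B, P2RY12 and TREML1 had 0.

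Among granule cargo genes, CLU and TGFB1 rose after both compounds, while PF4 and PPBP were at 0. Of 13 tested cargo genes, PDGFA and PDGFB entered the test only through the FB23-2 libraries, and of the other 11, 8 were called higher after FB23-2 and 1 lower, with a median log2 fold change of 1.63. That is 72.7% higher and 81.8% called, where 39.6% and 83.1% of all genes that passed on both sides were. With all 13 genes the counts were 10 and 1 and the median was 1.85. CLU, the secreted chaperone clusterin, rose by 5.96 ± 0.11, from 0.903 ± 0.0751 to 67.4 ± 4.45 TPM (SD, n = 3). TGFB1 rose by 2.08 ± 0.06, while ANGPT1 fell by 1.18 ± 0.07. PDGFB had 11, 9 and 393 counts in DMSO, FB23 and FB23-2. These genes are made by many cell types besides megakaryocytes. After FB23, 4 of the 11 were called higher and 1 lower, 45.5% where 25% of all such genes were called: CLU rose by 1.03 ± 0.17 and TGFB1 by 0.31 ± 0.06, and LTBP1 fell by 0.28 ± 0.05 (edgeR adjusted p = 0.000486, 0.00101 and 0.00039).

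The chemokine genes of the cluster that holds PF4 and PPBP were not uniformly silent. Of 7 listed, PF4V1, CXCL1 and CXCL6 had 0 counts. CXCL5 had 14, 8 and 6 counts in DMSO, FB23 and FB23-2, so it was not higher after FB23-2, and it was not tested. CXCL2, CXCL3 and CXCL8 entered the test only through the FB23-2 libraries, so their counts are given without a call. CXCL8, the neutrophil chemokine, had 2 counts in DMSO, 4 in FB23 and 448 in FB23-2. CXCL2 had 7, 10 and 58 counts and CXCL3 17, 35 and 101.

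Among granule formation and cytoskeleton genes, 14 of 25 tested were called higher after FB23-2 and 5 lower, 76% in all where 82.6% of all genes were called, and the median absolute log2 fold change was 0.47 against 0.73 for all genes. LYST, the lysosome trafficking regulator, rose by 2.80 ± 0.13, TPM4 by 1.64 ± 0.05 and HPS3 by 1.51 ± 0.08, and HPS4 fell by 0.58 ± 0.06. Among platelet signalling genes, 10 of 20 were called higher and 7 lower, 85% in all. RASA3 rose by 2.15 ± 0.12 and PLCG2, a phospholipase that acts below GP6, by 1.87 ± 0.10. PLA2G4A, an enzyme on the way to thromboxane, fell by 1.97 ± 0.12, and TBXAS1, the thromboxane synthase gene, had 61, 90 and 31 counts in DMSO, FB23 and FB23-2 and passed the filter only through the libraries other than FB23-2. After FB23 the counts were 4 higher and 2 lower in the first of these lists and 3 higher and 4 lower in the second, 24% and 35% called where 23.5% of all genes were. NBEAL2, needed for alpha granules, fell by 0.20 ± 0.04, GNAQ and VAV1 fell by 0.40 ± 0.07 and 0.41 ± 0.09, and GNAI2 rose by 0.36 ± 0.08 (log2, SE, each called by edgeR).

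Over the 5 lists, 48 of 87 tested genes were called higher after FB23-2 and 25 lower, 83.9% in all against 82.6% of all genes. Among the 81 of them that passed the filter on both sides, 44 were called higher and 23 lower, 82.7% against 83.1% of all such genes. The share called higher was 54.3%, against 39.6% of all such genes. After FB23 the counts were 11 higher and 13 lower, 27.6% against 23.5%. The share of list genes called in either direction was thus near the background for both compounds. After FB23-2 the share called higher was above the background, a difference that was not tested.

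**Figure D4:**
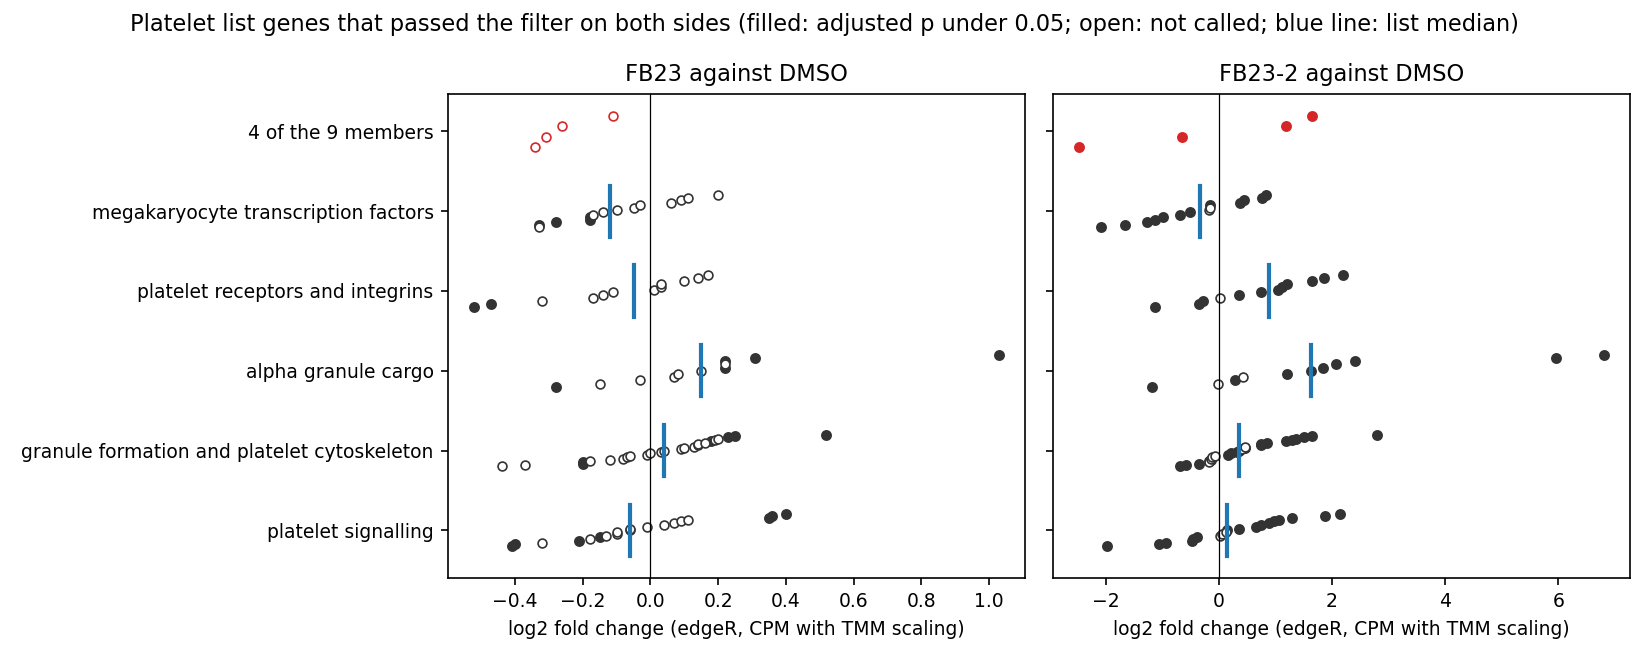
Log2 fold change (edgeR, CPM) of 4 members and of the genes of the 5 lists that passed the filter on both sides (all 3 FB23-2 libraries and at least 3 of the other 6 at 0.548 CPM), for FB23 (left) and FB23-2 (right) against DMSO. The horizontal axes differ between the panels, filled points have an adjusted p under 0.05, and the blue line is the list median. Cargo and receptor medians lie at 1.63 and 0.89 for FB23-2 and at 0.15 and -0.05 for FB23.

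Markers of other cell types moved over the same comparisons. The 15 erythroid markers (1 at 0 in each group) summed to 31400 to 33800 TPM in FB23 and 3970 to 4540 TPM in FB23-2, and after FB23-2 the globin gene HBZ fell by 5.16 ± 0.09 and KLF1, the erythroid factor, fell by 3.84 ± 0.08 (log2, SE, edgeR). The 10 endothelial markers, a cell type that also makes VWF and SELP, summed to 0.8 to 1.17 TPM in DMSO, 1.2 to 1.55 TPM in FB23 and 4.77 to 6.61 TPM in FB23-2, with 5, 4 and 3 of them at 0. CLDN5 rose by 1.82 ± 0.25 after FB23-2, TIE1 averaged 0.156 CPM in DMSO, 0.177 in FB23 and 3.78 in FB23-2 and entered the test only through the last, and SELE was at 0. The 5 lymphoid markers summed to 4.87 to 6.86 TPM in DMSO, 4.15 to 5.17 TPM in FB23 and 30.6 to 35.4 TPM in FB23-2. The 11 promyelocyte and monocyte markers summed to 53.9 to 54.8, 43.8 to 46.3 and 60.2 to 62.6 TPM in the same order. Most of the rise after FB23-2 was LYZ, at means of 4.35, 2.91 and 11.4 TPM. ITGAM was at 4.45, 2.54 and 3.63 TPM and CD33 at 44, 38.8 and 44.4 TPM. In edgeR's test of FB23-2 against DMSO, LYZ was called higher (log2 1.15), and ITGAM (-0.54) and CD33 (-0.23) were called lower. The 6 mast cell and eosinophil markers summed to 15.5 to 16.4, 5.7 to 6.14 and 8.45 to 10.3 TPM, so the sum was lower after both compounds and lowest after FB23. Most of that sum was PRG2, at means of 14.1, 5.52 and 9.08 TPM. EPX (1.36, 0.23 and 0.173 TPM) and HDC (0.53, 0.163 and 0.113 TPM) were instead lowest after FB23-2. Most of the sum over the 12 megakaryocyte and platelet markers, 4 of them at 0, was GP1BB. With GP1BB the sum was 387 to 440 TPM in DMSO, 306 to 400 TPM in FB23 and 304 to 333 TPM in FB23-2. Without GP1BB the sum was 6.68 to 7.33 TPM in DMSO, 5.39 to 6.39 TPM in FB23 and 16.8 to 17.3 TPM in FB23-2. The part of other cell states in the changes of GP6, GP1BA, VWF and TUBB1 was not tested.

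The genes whose log2 CPM followed each member most closely over the 9 libraries were found by Pearson's r in a search of 11638 genes (11639 for VWF) whose log2 CPM averaged 1 or more. For GP6 they were B4GALNT1 (r = 0.993), NLK and ZDHHC9, and for GP1BA C11orf72 (r = 0.978), EXOC3L4 and BCAS3. TUBB1 was followed by UTP23 (r = 0.998), ZNF207 and CS, GP1BB by ALKBH7 (r = 0.980), STRN4 and PRICKLE3, and VWF by RGS16 (r = 0.957), ODF2L and VAV2. These values describe likeness over libraries that fall into 3 treatment groups and each r mixes the differences between groups with those within them.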

How the data were processed

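Poly(A) RNA of 9 libraries (3 groups of 3) was analysed. Per the submitters' processing notes, RSEM 1.2.31 and GRCh38 were used; no other step is named there. Per the file headers, the deposited tables hold, per gene, RSEM's expected counts and TPM, with transcript and effective lengths. The authors' TPM values were used for levels. Expected counts were rounded, genes filtered by edgeR's filterByExpr (minimum count 10, minimum total 15), scaled by TMM, and tested by edgeR 4.0.16 quasi-likelihood F-tests over all 9 libraries in R 4.3.3, with DESeq2 1.42.0 and limma 3.58.1 as alternatives. Of 26830 genes 13365 were tested, including 5 of 9 members. The test scripts were checked on simulated data.

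The members and lists were chosen with earlier results of these data known. Named genes were the members, a few lineage genes, the 2 highest and 2 lowest called genes of each list, and 3 genes most like each tested member. Some list genes whose calls changed with the processing appear only in the counts. Some genes that this rule names are not reported here. Gene positions and promoter windows are RefSeq's, GRCh38.p14.

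Replicate numbers are shared between groups, but same-numbered libraries did not deviate together: over 9 pairs the correlation of deviations ran from -0.363 to 0.075, and 0 pairs exceeded 0.1. Alternatives covered scaling, filters, tools, TPM, the replicate block, depth and each library left out in turn.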

Additional observations from a re-analysis of the deposited data

How the results depend on the processing

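The number of members called in FB23 against DMSO moved from 0 to 1, always GP1BB, with DESeq2 size factors (log2 fold change -0.27, edgeR adjusted p = 0.0466), without a filter on low counts (-0.22, edgeR adjusted p = 0.00451), with libraries thinned to the smallest (-0.27, edgeR adjusted p = 0.0387) and with either sum of the GP1BB locus. Leaving out each library in turn gave 0 to 1 called. For both FB23-2 comparisons every setting gave 4 to 5 members called, VWF included. The VWF call is not independent of the filter, so nothing is read from it in these counts. In the main fit 82.6% of all tested genes were called against DMSO and 81.5% against FB23. A count of 4 arose where VWF fell under the filter, could not be tested, or GP1BB missed the threshold on the TPM scale. VWF was tested in 16 of 20 settings against DMSO. Over the settings, GP6 ranged from 1.52 to 1.86, TUBB1 from -2.55 to -2.04, GP1BA from 0.89 to 1.42, GP1BB from -0.70 to -0.42 and VWF from 0.77 to 2.05 (log2, FB23-2 against DMSO). Leaving out genes that passed the filter on 1 side only, a choice made after seeing the data, gave 4 members called in each FB23-2 comparison and 67 list genes in place of 73 in FB23-2 against DMSO. With the replicate number as a block, 0 members were called for FB23, where 2504 of 13365 genes were called. In each FB23-2 comparison 5 members were called, VWF among them, where 10883 (against DMSO) and 10705 (against FB23) of 13365 genes were.

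Signs changed only for values that never passed, all in FB23 against DMSO: GP1BA to 0.15 without DMSO replicate 3 (from -0.39 without DMSO replicate 1), NFE2 to 0.01 with no filter and 0.00 without FB23 replicate 2 (-0.05 without FB23 replicate 3), and ITGA2B to 0.00 when thinned and 0.05 without FB23 replicate 2 (-0.19 without FB23 replicate 1). The median of all genes of FB23-2 against DMSO shifted by 0.17 with upper-quartile factors, 0.15 with library totals and 0.25 on the TPM scale with limma, where 6732 genes were called higher and 4256 lower in place of 5523 and 5518. The members' directions in FB23-2 held under each of these. Counting depth limits VWF and the members at 0.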
